A study of Homo sapiens with 9 samples.

Results

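Both platinum-resistant variants of the human ovarian carcinoma cell line IGROV-1 were set, as one average, against the parental line. The resistant side was the mean of 2 line means, IGROV-1/OHP (OHP, 3 arrays) and IGROV-1/Pt1 (Pt1, 3 arrays), and the other side was the mean of parental IGROV-1 (3 arrays), which uses all 9 arrays of the series. The genes described are those for which all 6 resistant arrays lay on one side of all 3 parental arrays. They numbered 1757 of 18852 measured genes. Pt1 is labelled cisplatin-resistant and OHP oxaliplatin-resistant, and the parental cells are cisplatin-sensitive. Each variant came from drug-exposed parental cells, but the text on the design gives cisplatin for OHP as well, so the drug behind OHP is uncertain. All 9 samples were harvested from growing cultures and are said to be independent, and the dose, the length of exposure and whether a variant is 1 clone are not given in the sources used here. The average therefore stands for 2 variants of 1 cell line.

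Cisplatin and oxaliplatin form platinum adducts on DNA. Cells are known to resist them by taking up less drug or exporting more, by binding it to glutathione or metallothionein, by repairing or bypassing the adducts, and by failing to start the apoptosis that DNA damage switches on through p53. Ovarian carcinoma cells also carry interferon and NF-kB signalling, which control large sets of genes through short promoter sequences.

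Total RNA was measured as biotinylated cRNA on Illumina bead arrays, and values are deposited intensities in arbitrary units. A ceiling of 302.19 units, which nearly all of 431 probes for olfactory receptors stayed under, marks background. In the limma fit, 1466 of 18852 genes (7.78%) differed between the resistant average and parental cells at an adjusted p under 0.05, here named as called. Of these, 555 (2.94%) were higher and 911 (4.83%) lower in the resistant lines, and 822 (4.36%) changed at least 2-fold. All 6 resistant arrays lay above the parental arrays for 624 genes (3.31%) and below them for 1133 (6.01%), together 9.32%. Both conditions held for 329 rises and 702 falls. Their median log2 fold change was 1.07 for the rises and -1.12 for the falls, or 0.91 and -0.97 with genes at background held at their bound, against -0.01 for all genes. A change of at least 4-fold was fitted for 54 of these rises and 129 of these falls, and of at least 16-fold for 6 and 18. The direction of these genes on single arrays is what selected them, so it adds no support to the test.

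OHP array 2 stood apart from its line. Across genes its Pearson correlation was 0.942 and 0.926 with the other OHP arrays and 0.956 with parental array 2, whereas OHP arrays 1 and 3 correlated at 0.99. Without it, 4577 genes were called, 2017 higher and 2560 lower, and these included all 1466. The lowest count, 802, came without parental array 2, with 302 higher and 500 lower, and the counts were also below 1466 by over 1.5 times without Pt1 array 2 (964) or parental array 1 (834) or 3 (880). The rises numbered 353 to 363 without 1 Pt1 array and 302 to 311 without 1 parental array. When the 6 resistant arrays were treated as 1 group, so that the difference between OHP and Pt1 entered the spread, 591 genes were called, 157 higher and 434 lower, all of them among the 1466.

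Markers of ovarian carcinoma were present, with PAX8, KRT7, KRT19, FOLR1, CLDN3 and SOX17 above background on all 9 arrays, while WT1, CLDN4, ESR1 and EMX2 were at background on all of them. Of the 15 measured, MSLN was called higher and EPCAM, FOLR1 and KRT19 lower, beside 7.78% of all genes called. The summed level of all 15 was 55753 to 78504 units in OHP, 67897 to 72091 in Pt1 and 120424 to 134793 in parental cells. Of 14 leucocyte markers, 0 were called (1 higher and 2 lower without OHP array 2), beside 7.78% of all genes. Only 3 of the 14 were above background on all arrays of a line. PTPRC, CD3D, CD3E, CSF1R, ITGAM, NKG7 and CD79A were at background throughout. The summed level of the leucocyte markers was 4101 to 9643 units in OHP, 4462 to 4548 in Pt1 and 6809 to 7185 in parental cells. Of 14 fibroblast markers, 0 were called, beside the same 7.78%, and only 3 were above background on all arrays of a line. DCN, LUM and COL1A2 were among 10 at background throughout. The sums were 4131 to 5569 units in OHP, 3650 to 3932 in Pt1 and 4045 to 4380 in parental cells. Of 11 endothelial and mesothelial markers, 3 rose, beside 2.94% of all genes called higher. These were ENG, the TGF-beta co-receptor endoglin, and LRRN4, whose rises lay in Pt1 (at least 2.95-fold and 5.54-fold), and the endothelial cadherin CDH5, whose call was lost without OHP array 1, Pt1 array 2 or 3 or any parental array, and without background correction (adjusted p = 0.0768). The summed level of all 11 was 7133 to 12463 units in OHP and 5997 to 7678 in Pt1, against 3275 to 5001 in parental cells. On OHP arrays, ENG, LRRN4 and CDH5 reached at most 227.7, 315.0 and 352.9 units, so most of the OHP sum came from markers that were not called. PECAM1, VWF and UPK3B were above background on all 9 arrays. ENG, LRRN4 and CDH5 were not called with the resistant arrays as 1 group (adjusted p = 0.684, 0.46 and 0.082). KDR, TEK, CLDN5 and HP were at background on all 9 arrays, and the part of such cells in the results below was not tested. In bulk RNA, fewer cells of a type and less RNA per cell cannot be told apart.

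Among the largest changes in both lines were a rise of MSLN and QPRT and a fall of KRT24, TNFRSF14 and HBA2. MSLN, mesothelin, a surface glycoprotein of mesothelium and ovarian carcinoma, had 10670, 17867 and 7786 units in OHP, 11405, 12293 and 11795 in Pt1, and 316.3, 334.8 and 271.0 in parental cells. The 6 resistant arrays all lay far above the parental arrays, of which 1 was at background, with the widest gap of any rise, 4.54 on the log2 scale. The fitted log2 fold change of MSLN was 5.78 ± 0.24 (SE, n = 6 resistant and 3 parental arrays; adjusted p = 1.03e-06), and it was 5.76 ± 0.28 in OHP and 5.81 ± 0.28 in Pt1. OHP and Pt1 share the parental arrays in such values, which are therefore set side by side without a test of their likeness. QPRT, an enzyme of NAD synthesis from quinolinate, had 14184, 25349 and 18785 units in OHP, 10969, 7025 and 6224 in Pt1, and 267.9, 254.7 and 245.7 in parental cells. All parental values of QPRT were at background, so its rise has only a bound, at least 40.3-fold for the average (adjusted p = 5.28e-07), at least 62.6-fold in OHP and at least 25.9-fold in Pt1. Bounds for other genes whose dimmer side never exceeded the ceiling were formed likewise, as the brighter side's deposited intensity over the ceiling. KRT24, a type I keratin, had 425.7, 686.7 and 402.2 units in OHP, 427.2, 308.0 and 372.5 in Pt1, and 38651, 39082 and 30621 in parental cells. It showed the widest gap of any fall, 5.48, and a log2 fold change of -6.79 ± 0.24 (adjusted p = 5.1e-07). HBA2, an alpha globin, had 1666, 1346 and 1083 units in OHP, 191.3, 203.2 and 215.7 in Pt1, and 49190, 60535 and 53470 in parental cells. Its log2 fold change was -5.44 ± 0.20 in OHP, and it was at background in Pt1, at least 179-fold lower (adjusted p = 8.29e-08 for the average). HBA2 was the 1 called member of 10 globin genes, beside 7.78% of all genes called. Only 2 of the 10 were above background on all arrays of a line. The HBA2 probe may also detect the near-identical copy HBA1. The calls of these 5 genes held without each single array and with the 6 resistant arrays as 1 group, as did those of the other 25 genes shown in the plots of shared rises and falls.

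**Figure D1:**
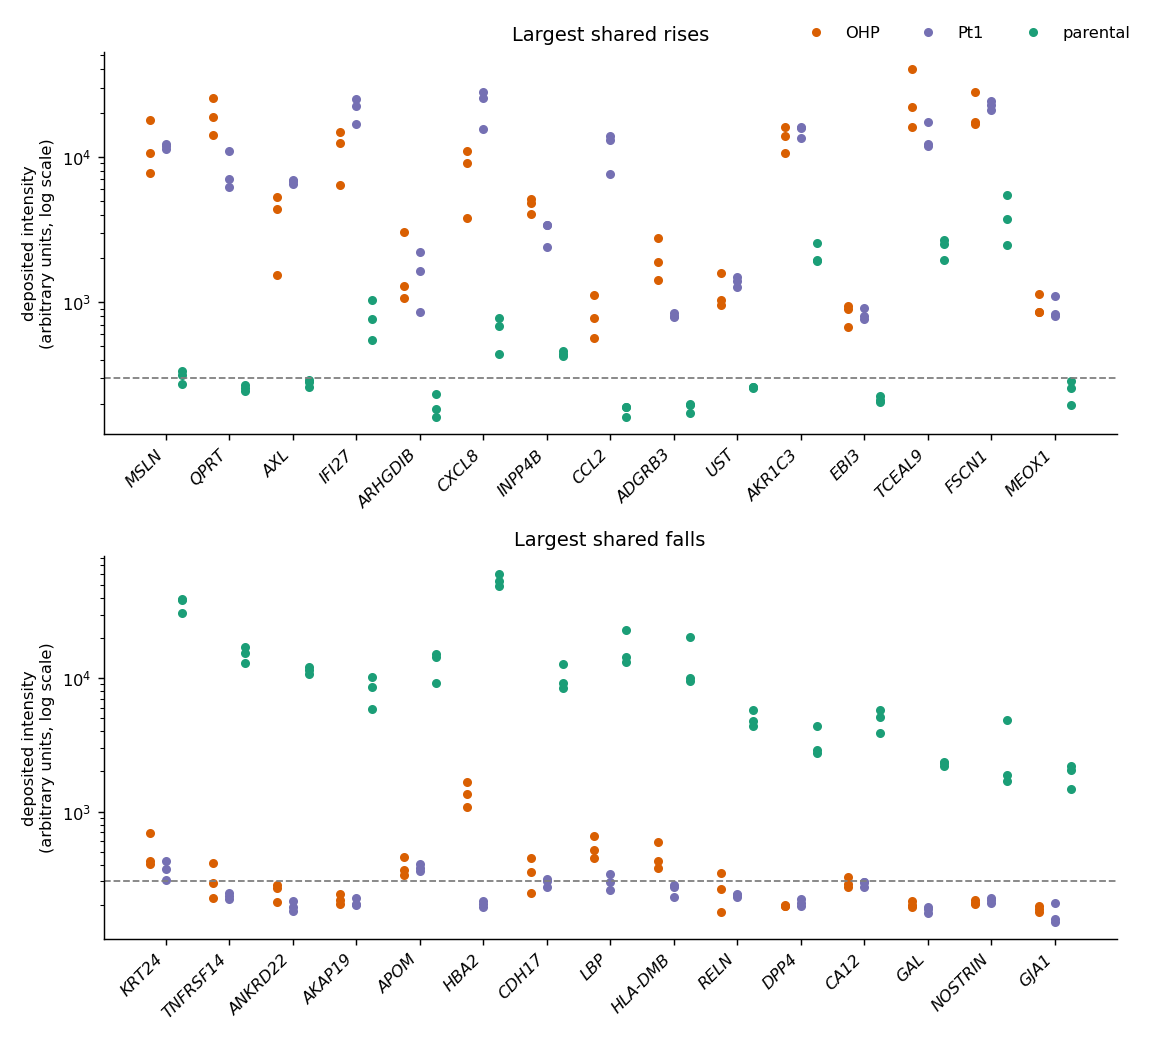
Deposited intensity (arbitrary units, log axis) on each array of the 15 largest shared rises (top) and 15 largest shared falls (bottom), with OHP, Pt1 and parental arrays side by side as points and the background ceiling of 302.19 units as a dashed line. The genes were ranked by the smaller of their changes in OHP and Pt1, so the absence of overlap was a condition for showing them. Most of the falls have at least 1 resistant array at or under the ceiling.

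Interferon-stimulated genes, which block viral replication and are switched on by type I interferon, were called higher more often than lower. Of 42 measured, 18 rose, 1 fell and 23 were not called, beside 2.94% of all genes called higher. Without OHP array 2, 22 rose and 1 fell, and with the resistant arrays as 1 group 11 rose and 1 fell. The list's median log2 fold change was 0.92 (0.56 with genes at background held at their bound), with a median of 0.5 in OHP and 1.35 in Pt1, beside -0.01 for all genes. IFI27, a mitochondrial and nuclear membrane protein widely used as an interferon marker, had 12499, 6407 and 14750 units in OHP, 22274, 25148 and 16948 in Pt1, and 549.1, 762.5 and 1038 in parental cells. IFI44, a cytoplasmic interferon-induced protein, had 1785, 855.1 and 2237 units in OHP, 5481, 5949 and 3367 in Pt1, and 330.5, 364.6 and 404.8 in parental cells. For both genes every resistant array lay above the parental arrays, and the Pt1 arrays lay above the OHP arrays. The log2 fold change was 4.50 ± 0.31 for IFI27 (adjusted p = 2.5e-05) and 3.25 ± 0.32 for IFI44 (adjusted p = 0.000219). IFI44 rose less in OHP than in Pt1 (difference -1.74 ± 0.37, adjusted p = 0.02), and for IFI27 the difference of -1.01 ± 0.36 was not called (adjusted p = 0.136). IFIT2, which binds viral RNA and blocks its translation, rose by 2.36 ± 0.24 (adjusted p = 0.000272), with 1.61 in OHP and 3.12 in Pt1. OAS1, which makes the activator of the antiviral RNase L, had 830.9, 275.8 and 1078 units in OHP, 1405, 1624 and 1079 in Pt1, and 196.3, 222.0 and 284.1 in parental cells. OHP array 2 was the only resistant array of OAS1 at background and overlapped with the parental arrays, and the rise of at least 3.05-fold (adjusted p = 0.00963) was no longer called without parental array 1 or 2. The single fall was ISG20, a 3' exonuclease, named after its value was seen, at -1.65 ± 0.17 (adjusted p = 0.000333), with 2595 to 3603 units in OHP, 2025 to 2755 in Pt1 and 7085 to 9327 in parental cells.

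The promoters of 3 of the risen interferon genes are shown because interferon acts on such genes through a short promoter element. The sequences, from RefSeq on build GRCh38.p14, run from 250 bases before to 50 bases after the start of the gene, on the plus strand at chr14:94110486-94110785 for IFI27, chr1:78649539-78649838 for IFI44 and chr1:1013247-1013546 for ISG15. ISG15, a ubiquitin-like modifier, was added after its value was seen. Capitals mark the core of the interferon-stimulated response element, which is GAAA, any 2 bases and GAAA again, or TTTC, any 2 bases and TTTC on the other strand.
IFI27: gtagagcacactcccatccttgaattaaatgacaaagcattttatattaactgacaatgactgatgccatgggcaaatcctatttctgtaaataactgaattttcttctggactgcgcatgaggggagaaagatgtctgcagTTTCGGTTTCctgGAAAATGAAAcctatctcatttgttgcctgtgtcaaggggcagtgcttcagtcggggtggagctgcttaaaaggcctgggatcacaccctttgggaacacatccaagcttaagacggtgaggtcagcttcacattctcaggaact
IFI44: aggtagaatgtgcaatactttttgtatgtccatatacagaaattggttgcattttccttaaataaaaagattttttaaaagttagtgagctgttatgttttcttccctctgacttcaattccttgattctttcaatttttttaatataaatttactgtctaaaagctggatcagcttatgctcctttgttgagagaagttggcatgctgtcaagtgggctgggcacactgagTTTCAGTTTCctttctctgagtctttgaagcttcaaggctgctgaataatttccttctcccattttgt
ISG15: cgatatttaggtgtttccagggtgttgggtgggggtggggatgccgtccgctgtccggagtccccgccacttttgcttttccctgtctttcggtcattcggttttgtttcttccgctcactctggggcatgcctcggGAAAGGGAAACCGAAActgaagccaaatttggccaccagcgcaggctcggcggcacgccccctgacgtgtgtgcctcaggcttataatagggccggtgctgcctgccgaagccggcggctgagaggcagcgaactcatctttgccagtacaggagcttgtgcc
The core was found 2 times in the promoters of IFI27 and ISG15, overlapping in ISG15, and 1 time in that of IFI44, and 3.65% of 27305 promoters of this length hold it. The 3 promoters were picked as examples and those of the other risen interferon genes are not shown, so no comparison with that share was made. A match describes the letters only and is not a measured binding site. ISG15 had 2393, 3319 and 2134 units in OHP, 8534, 8323 and 5795 in Pt1, and 787.8, 1774 and 1594 in parental cells, and its log2 fold change was 1.82 ± 0.29 (adjusted p = 0.00433), with the Pt1 arrays highest and no overlap with parental cells. ISG15 was not called with the resistant arrays as 1 group (adjusted p = 0.109).

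**Figure D2:**
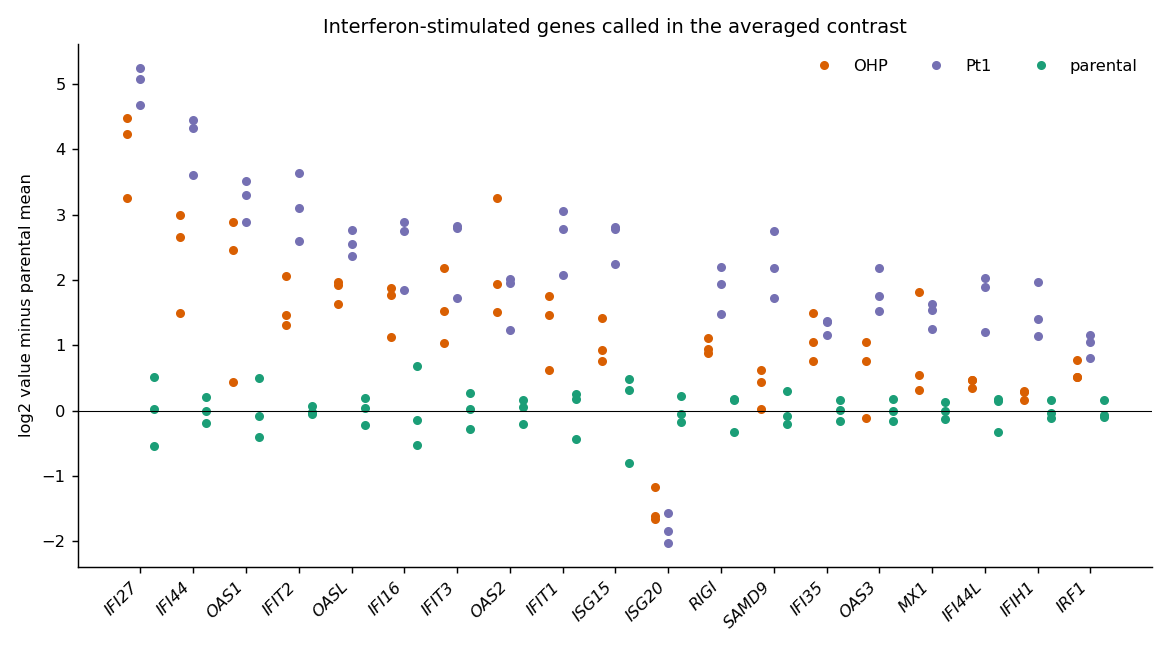
Background-corrected log2 values of the 19 called interferon-stimulated genes on each array, given as the difference from the parental mean of that gene, with OHP, Pt1 and parental arrays as points. Of the 19, 18 are higher and ISG20 is lower in the resistant average, and for most of the risen genes, with IFI16, IFIT3, OAS2, IFI35 and MX1 as the exceptions, all Pt1 arrays lie above all OHP arrays.

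Of 30 NF-kB targets and cytokines, 9 were called higher, 0 lower and 21 not called, beside 2.94% of all genes called higher. Without OHP array 2, 14 were higher and 1 lower, and with the resistant arrays as 1 group 4 were higher and 0 lower. The median of the list was 0.45 (0.18 with bounds). EBI3, given below, is outside this list. CXCL8, which attracts neutrophils, had 9031, 3785 and 10988 units in OHP, 15485, 25595 and 27891 in Pt1, and 772.0, 682.3 and 441.7 in parental cells. CCL2, which attracts monocytes, had 1123, 564.7 and 774.3 units in OHP, 7636, 13988 and 13088 in Pt1, and 190.4, 188.7 and 162.9 in parental cells. Both chemokines were above all parental arrays on all 6 resistant arrays and highest in Pt1. CXCL8 rose by 4.61 ± 0.37 (adjusted p = 5.77e-05), and CCL2 was at least 2.61-fold higher in OHP and at least 37-fold higher in Pt1 (adjusted p = 6.66e-06 for the average). The lines differed for both, OHP minus Pt1 being -1.64 ± 0.42 for CXCL8 (adjusted p = 0.0469) and -4.01 ± 0.32 for CCL2 (adjusted p = 5.23e-05). IL32, a proinflammatory cytokine, had 7454, 6022 and 7376 units in OHP, 9373, 13838 and 9513 in Pt1, and 1411, 1621 and 1072 in parental cells, and rose by 2.77 ± 0.19 (adjusted p = 2.83e-05). CCL20, the ligand of the chemokine receptor CCR6, behaved otherwise, with 15991, 6279 and 9384 units in OHP, 538.7, 899.9 and 570.4 in Pt1, and 419.6, 564.0 and 486.1 in parental cells. Its average rise of 2.57 ± 0.30 (adjusted p = 0.000638) came from OHP, at 4.64 ± 0.35, while Pt1 stood at 0.50 ± 0.35 (adjusted p = 0.474) and overlapped with parental cells, and the call was lost with the resistant arrays as 1 group (adjusted p = 0.374). EBI3, a subunit shared by interleukins of the IL-12 family, had 673.0, 944.4 and 894.5 units in OHP, 912.2, 800.5 and 769.5 in Pt1, and 204.1, 227.3 and 211.9 in parental cells, at least 2.74-fold higher (adjusted p = 1.28e-05), with the OHP and Pt1 arrays interleaved.

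The promoter of CXCL8 is shown for its NF-kB sequence, GGAATTTCC, in capitals (GGAAATTCC on the other strand), and runs over chr4:73740319-73740618 on the plus strand of GRCh38.p14, as given by RefSeq.
CXCL8: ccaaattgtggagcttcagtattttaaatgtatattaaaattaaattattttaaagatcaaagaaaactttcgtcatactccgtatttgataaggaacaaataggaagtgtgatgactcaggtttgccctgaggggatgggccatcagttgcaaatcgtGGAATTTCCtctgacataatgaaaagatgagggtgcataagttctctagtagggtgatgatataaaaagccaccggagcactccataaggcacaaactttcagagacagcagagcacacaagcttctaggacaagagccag
This sequence occurs 1 time here and in 0.472% of 27305 promoters of the same length. Only this exact sequence was counted, and this promoter was picked as an example, so the share is no comparison. The match is not a measured binding site.

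Among antigen presentation genes, 2 of 22 rose, 1 fell and 19 were not called, beside 7.78% of all genes called. Without OHP array 2, 9 rose and 2 fell, and with the resistant arrays as 1 group 1 rose and 1 fell. TNFRSF14 and LBP, given below, are outside this list. HLA-DMB, a helper of peptide loading on class II molecules, had 377.4, 591.4 and 425.8 units in OHP, 283.0, 229.4 and 272.4 in Pt1, and 20393, 9574 and 10077 in parental cells. It was lower on all 6 resistant arrays, at -5.12 ± 0.32 in OHP and at least 41.5-fold lower in Pt1 (adjusted p = 2.97e-06 for the average). The immunoproteasome subunit PSMB9 stood at 2.49 ± 0.54 (adjusted p = 0.021) and TAPBP, the peptide-loading chaperone tapasin, at 0.67 ± 0.12 (adjusted p = 0.00963). PSMB9 was at background on OHP array 2 and lost its call without any 1 of the Pt1 or parental arrays, and TAPBP lost it without parental array 2 or 3. PSMB9 was not called with the resistant arrays as 1 group (adjusted p = 0.0615), and neither gene was called when the probes of a gene were averaged (adjusted p = 0.128 for PSMB9 and 0.0719 for TAPBP). TNFRSF14, the herpesvirus entry mediator that signals to lymphocytes, had 289.5, 411.2 and 227.2 units in OHP, 243.9, 233.0 and 221.9 in Pt1, and 15409, 17038 and 13109 in parental cells. Its log2 fold change was -6.51 ± 0.25 (adjusted p = 5.74e-07), a fitted value that rests partly on background, since OHP array 2 alone exceeded the ceiling. LBP, which presents bacterial lipopolysaccharide to CD14, had 518.9, 453.0 and 656.5 units in OHP, 296.4, 259.7 and 339.6 in Pt1, and 23007, 13309 and 14476 in parental cells, a change of -5.79 ± 0.23 (adjusted p = 7.19e-07) that in Pt1 rests partly on background.

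Platinum uptake and efflux genes were called in both directions, with 1 of 17 higher, 5 lower and 11 not called, beside 7.78% of all genes called. There were 2 higher and 5 lower without OHP array 2, and 1 higher and 3 lower with 1 resistant group. ABCC2, a pump of the canalicular membrane that exports glutathione conjugates and cisplatin, had 859.4, 1607 and 845.1 units in OHP, 1381, 2202 and 1943 in Pt1, and 298.7, 286.8 and 260.6 in parental cells. It was at background in parental cells and at least 4.57-fold higher in the average (adjusted p = 0.000147), at least 3.48-fold in OHP and 5.98-fold in Pt1. ABCC3, a related basolateral pump, had 2194, 3941 and 1544 units in OHP, 2942, 2345 and 3015 in Pt1, and 24792, 20710 and 15789 in parental cells. ABCB1, the multidrug pump P-glycoprotein, had 1057, 1620 and 1460 units in OHP, 1260, 1467 and 1412 in Pt1, and 5510, 9246 and 9503 in parental cells. ATP7B, a copper ATPase that also moves platinum, had 2356, 3024 and 2699 units in OHP, 2772, 2273 and 2957 in Pt1, and 15011, 8438 and 10690 in parental cells. These 3 transporters were lower on every resistant array, with changes of -3.03, -2.61 and -2.09 on the log2 scale (SE 0.29, 0.22 and 0.20; adjusted p = 0.000174, 8.41e-05 and 0.000174). The mean over the probes of ATP7B gave -1.30. The other falls, named after their values were seen, were SLC47A1, an organic cation extruder whose fall lay in OHP (237.4 to 280.8 units in OHP, 2356 to 3143 in Pt1 and 1940 to 2438 in parental cells), and ABCC5, whose call was lost without any array but OHP array 2 (adjusted p up to 0.23). Neither was called with the resistant arrays as 1 group (adjusted p = 0.583 and 0.165). The copper importer SLC31A1 had 2355, 576.4 and 3386 units in OHP, 2835, 2625 and 2286 in Pt1, and 2659, 1005 and 2590 in parental cells. Array 2 was the lowest in both OHP and parental cells, and the difference of 0.11 ± 0.57 was not called (adjusted p = 0.96). ATP7A, the second copper ATPase, stood at -0.03 ± 0.18 (adjusted p = 0.968).

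Thiol defence changed in single genes. Of 9 metallothioneins, small cysteine-rich proteins that bind metals, only 2 were above background on all arrays of a line. MT2A alone was called (3 without OHP array 2), beside 7.78% of all genes. MT2A had 6570, 3696 and 5775 units in OHP, 5543, 7862 and 5541 in Pt1, and 2018, 2293 and 1766 in parental cells. It was higher on all 6 resistant arrays, by 1.54 ± 0.22 (adjusted p = 0.00186). Of 36 glutathione and NRF2 target genes, 1 rose, 4 fell and 31 were not called (7 rose and 6 fell without OHP array 2, and 1 rose and 1 fell with 1 resistant group), beside 7.78% of all genes called. The riser was AKR1C3, an aldo-keto reductase of steroids, prostaglandins and lipid aldehydes, with 16173, 10712 and 13866 units in OHP, 15920, 13554 and 16025 in Pt1, and 1961, 1911 and 2567 in parental cells. AKR1C3 rose by 2.80 ± 0.17 (adjusted p = 1.43e-05), nearly alike in both lines (2.71 in OHP and 2.89 in Pt1). NQO1, a quinone reductase and a standard NRF2 target, stood lower at -1.05 ± 0.20 (adjusted p = 0.012), the peroxidase GPX1 at -1.20 ± 0.28 (adjusted p = 0.0312) and the transferase GSTK1 at -0.66 ± 0.13 (adjusted p = 0.0118). The fourth, AKR1C2, chosen after its value was seen, stood at -0.63 ± 0.15 and is close in sequence to AKR1C3. The calls were lost for NQO1 without any parental array, for GPX1 without any Pt1 or parental array, for GSTK1 without parental array 3, and for AKR1C2 without any array but OHP arrays 1 and 2. With the resistant arrays as 1 group, NQO1, GPX1 and AKR1C2 were not called (adjusted p = 0.182, 0.0553 and 0.118). GSTP1, the main glutathione transferase of many carcinomas, had 61717 to 64506 units in OHP, 54173 to 58373 in Pt1 and 60595 to 66394 in parental cells, and its difference of -0.10 ± 0.12 was not called (adjusted p = 0.763).

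In nucleotide excision and mismatch repair, 0 of 33 genes rose and 2 fell, beside 7.78% of all genes called in either direction (5 and 4 without OHP array 2, 0 and 1 with 1 resistant group). ERCC1, which with XPF cuts the strand 5' of an adduct, had 5238, 3697 and 5824 units in OHP, 6034, 5299 and 5666 in Pt1, and 13883, 10102 and 10515 in parental cells. All 6 resistant arrays were below the parental arrays, and the change was -1.14 ± 0.18 (adjusted p = 0.0041), -1.25 in OHP and -1.02 in Pt1. ERCC1 was not called when its probes were averaged (-0.66, adjusted p = 0.187). GTF2H4, a subunit of the repair factor TFIIH, stood at -0.59 ± 0.15 (adjusted p = 0.0461) and was called without OHP array 2 but not without any other array, nor with a smaller normexp offset (adjusted p = 0.0804). In recombination, Fanconi and translesion repair, 1 of 37 rose and 1 fell (6 and 1 without OHP array 2, 0 and 0 with 1 resistant group), beside the same 7.78%. RADX, given below, is outside this list. ATR, the kinase of stalled replication forks, had 204.1, 189.1 and 232.3 units in OHP, 605.1, 797.5 and 784.3 in Pt1, and 212.7, 221.5 and 247.0 in parental cells. Its averaged call (adjusted p = 0.0069) came from Pt1, at least 2.39-fold above the background level of the other arrays. SHPRH, a ubiquitin ligase of damage tolerance, stood at -0.69 ± 0.12 (adjusted p = 0.007), with -0.33 in OHP and -1.04 in Pt1. Neither ATR nor SHPRH was called when the probes of a gene were averaged (adjusted p = 0.164 and 0.117). BRCA1 was at 0.39 ± 0.16 and not called (adjusted p = 0.206). RADX, which binds single-stranded DNA at forks, had 1987, 1954 and 2116 units in OHP, 168.2, 189.8 and 188.4 in Pt1, and 9572, 11574 and 16643 in parental cells. It fell in both lines, to -2.66 ± 0.22 in OHP and at least 40.6-fold in Pt1 (adjusted p = 5.87e-07 for the average), and was at least 6.68-fold higher in OHP than in Pt1 (adjusted p = 1.49e-06). GTF2H4, ATR, SHPRH and RADX were not called with the resistant arrays as 1 group (adjusted p = 0.151, 0.617, 0.177 and 0.0735).

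Genes that p53 induces after DNA damage had 6 of 28 called lower, 1 higher and 21 not called, beside 4.83% of all genes called lower. There were 9 lower and 4 higher without OHP array 2, and 3 lower and 0 higher with the resistant arrays as 1 group. Without parental array 1 or 3, 3 or 4 were lower and 0 higher. The list's median was -0.18 (-0.02 with bounds). CDKN1A, the p21 inhibitor of cyclin-dependent kinases, had 1293, 998.8 and 1036 units in OHP, 2174, 3260 and 2507 in Pt1, and 14142, 16447 and 17626 in parental cells. All 6 resistant arrays were far below the parental arrays, with OHP the lowest. CDKN1A fell by 3.32 on the log2 scale (SE 0.17, adjusted p = 4.45e-06), further in OHP than in Pt1 (difference -1.32 ± 0.20, adjusted p = 0.00332). The mean over its probes gave -1.97. The death receptor FAS had 309.8, 210.0 and 284.9 units in OHP, 435.3, 426.7 and 424.9 in Pt1, and 1002, 869.6 and 1068 in parental cells, a change of -1.90 ± 0.20 (adjusted p = 0.000319) that in OHP rests partly on background. BAX, which permeabilises the mitochondrial outer membrane, had 2382, 2122 and 3547 units in OHP, 2992, 2480 and 2966 in Pt1, and 6262, 5044 and 8196 in parental cells, a change of -1.27 ± 0.21 (adjusted p = 0.0057), which was not called when its probes were averaged (-0.62, adjusted p = 0.0901). GDF15, a stress cytokine, stood at -1.78 ± 0.36 (adjusted p = 0.0156), with OHP overlapping parental cells, and lost its call without parental array 1. The riser was the polo-like kinase PLK2, chosen after its value was seen, at 1.12 ± 0.22 (adjusted p = 0.0134), a call that was lost without parental array 1 or 3. GDF15 and PLK2 were not called with the resistant arrays as 1 group (adjusted p = 0.195 and 0.0598). MDM2, the ubiquitin ligase of p53, had 209.5 to 317.9 units in OHP, 327.4 to 382.9 in Pt1 and 387.6 to 429.1 in parental cells. It was lower on all 6 resistant arrays by a narrow gap and was not called at -0.66 ± 0.20 (adjusted p = 0.0917). MDM2 was called lower without OHP array 2 or 3 (adjusted p = 0.0225 and 0.0177).

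Apoptosis regulators had 1 of 35 higher, 4 lower and 30 not called (6 and 7 without OHP array 2, 0 and 2 with 1 resistant group), beside 7.78% of all genes called. FAS and BAX were among the falls. BID, which carries the death receptor signal to mitochondria, had 963.3, 1052 and 916.8 units in OHP, 240.6, 241.7 and 246.2 in Pt1, and 855.6, 1097 and 847.3 in parental cells. OHP overlapped with parental cells and Pt1 was at background, at least 3.07-fold lower, so the averaged call (adjusted p = 0.000564) came from Pt1. BMF, a proapoptotic BH3-only protein, was at background in OHP and parental cells and at least 1.64-fold higher in Pt1, and its averaged call (adjusted p = 0.0272) was lost without OHP array 1, Pt1 array 1 or 3 or any parental array, and when its probes were averaged (adjusted p = 0.359). The antiapoptotic gene BCL2 was at -0.52 ± 0.17 and was not called (adjusted p = 0.105), nor was BCL2L1, at -0.13 ± 0.15 (adjusted p = 0.759). BCL2 was called lower without OHP array 2 (adjusted p = 0.0139). Of 43 proliferation genes, 2 were higher, 1 was lower and 40 were not called (11 higher and 3 lower without OHP array 2, 0 of either with 1 resistant group), near the 7.78% of all genes called. These were CDK2, the S phase kinase, at 0.66 ± 0.16 (adjusted p = 0.0379, a call lost without any array but OHP array 2, at 0.0825 with its probes averaged and at 0.0627 with a smaller normexp offset), CDKN2A, the p16 inhibitor, which was at least 4.76-fold higher in Pt1 and at background in OHP and parental cells, and the G1 kinase CDK6. CDK6 had 251.5, 206.1 and 311.8 units in OHP, 2258, 2347 and 2456 in Pt1, and 2553, 2192 and 2878 in parental cells, so that its fall lay in OHP (-3.98 ± 0.24, resting partly on background). BID, BMF, CDK6, CDKN2A and CDK2 were not called with the resistant arrays as 1 group (adjusted p from 0.0692 to 0.691).

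Epithelial genes had 6 of 32 called lower, 1 higher and 25 not called (7 and 4 without OHP array 2, 3 and 0 with 1 resistant group), beside 7.78% of all genes called. CDH17 and GJA1, given below, are outside this list. EPCAM, the epithelial adhesion molecule, had 3640, 1030 and 3666 units in OHP, 237.4, 234.1 and 205.3 in Pt1, and 19915, 16636 and 24996 in parental cells. It stood at -3.14 ± 0.46 in OHP and was at background in Pt1, at least 67-fold lower (adjusted p = 4.33e-05 for the average), and was at least 7.93-fold higher in OHP than in Pt1 (adjusted p = 0.000428). CLDN7, a tight junction claudin, showed the opposite order, with 194.9, 197.6 and 167.5 units in OHP, 1400, 1332 and 1523 in Pt1, and 3155, 2839 and 2952 in parental cells. It was at background in OHP, at least 9.86-fold lower, and stood at -1.13 ± 0.17 in Pt1 (adjusted p = 2.97e-06 for the average). KRT19, a keratin of simple epithelia, had 20647, 12381 and 17372 units in OHP, 31420, 27546 and 30202 in Pt1, and 62904, 66708 and 63880 in parental cells, a change of -1.55 ± 0.17 (adjusted p = 0.000401). CDH1, E-cadherin, had 296.2, 522.1 and 360.9 units in OHP, 238.6, 266.8 and 233.2 in Pt1, and 717.0, 530.1 and 727.1 in parental cells. It stood at -0.97 ± 0.28 in OHP (adjusted p = 0.085), not called there, where array 1 was at background and array 2 lay close under the lowest parental array, and was at least 2.16-fold lower in Pt1 (adjusted p = 0.00539 for the average). CDH17, a cadherin of intestinal epithelium, had 450.8, 246.8 and 350.8 units in OHP, 271.1, 304.0 and 310.6 in Pt1, and 9198, 8422 and 12788 in parental cells, a change of -5.51 ± 0.26 (adjusted p = 2.43e-06) that rests partly on background. GJA1, the gap junction protein connexin 43, had 195.3, 176.6 and 186.2 units in OHP, 149.8, 157.9 and 205.4 in Pt1, and 2035, 1484 and 2200 in parental cells, at least 6.22-fold lower (adjusted p = 4.45e-06). The riser was the desmosomal plakophilin PKP2, chosen after its value was seen, at 1.54 ± 0.37 (adjusted p = 0.0322), which lost its call without any array but OHP arrays 2 and 3. With the resistant arrays as 1 group, the adjusted p was 0.0506 for EPCAM, 0.213 for CLDN7, 0.0594 for CDH1 and 0.236 for PKP2.

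Of 37 mesenchymal and matrix genes, 5 rose and 2 fell (8 and 4 without OHP array 2, 2 and 0 with 1 resistant group, 3 and 2 without any 1 Pt1 array, and 2 and 1 without any 1 parental array), beside 7.78% of all genes called. CCN3 and RELN, given below, are outside this list. The intermediate filament gene VIM had 43543, 7833 and 50329 units in OHP, 43595, 43595 and 41734 in Pt1, and 53470, 27935 and 38498 in parental cells. OHP array 2 was the lowest of the 9, and the difference of -0.22 ± 0.52 was not called (adjusted p = 0.904). CCN1, a matrix-associated growth regulator, had 17695, 20321 and 26232 units in OHP, 18234, 20026 and 18192 in Pt1, and 6750, 11437 and 8137 in parental cells. All resistant arrays were higher, by 1.23 ± 0.19 (adjusted p = 0.00391). CCN3, of the same family, had 487.8, 407.1 and 596.1 units in OHP, 224.4, 210.0 and 190.8 in Pt1, and 7811, 4711 and 8504 in parental cells. It stood at -4.09 ± 0.27 in OHP and was lower in Pt1 by at least 22.5-fold (adjusted p = 2.25e-06 for the average). SPON1, a secreted matrix protein, fell at least 68.9-fold in OHP, to background, while Pt1 stood at -0.42 ± 0.25 (adjusted p = 0.386). RELN, reelin, a secreted glycoprotein of neuronal migration, had 347.7, 176.3 and 262.5 units in OHP, 239.7, 228.9 and 237.5 in Pt1, and 5808, 4353 and 4772 in parental cells, a change of -5.07 ± 0.30 (adjusted p = 1.01e-05) that rests partly on background and was -3.30 with its probes averaged. COL6A1, a collagen VI chain, stood at -1.95 ± 0.41 (adjusted p = 0.0177), with OHP array 2 at the parental level, and lost its call without any parental array. CALD1, an actin-binding regulator of contraction, rose in Pt1 (2.44 ± 0.24), with OHP at -0.11 ± 0.24 (adjusted p = 0.9). SPON1, COL6A1 and CALD1 were not called with the resistant arrays as 1 group (adjusted p = 0.425, 0.0716 and 0.563).

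In the actin list, 2 of 30 rose and 4 fell (5 and 6 without OHP array 2), beside 7.78% of all genes called. FSCN1 and ARHGDIB, given below, are outside this list. ACTA2, smooth muscle actin, had 1531, 1190 and 1367 units in OHP, 1409, 1387 and 1457 in Pt1, and 3985, 3920 and 4137 in parental cells. Its 3 groups were tight and the fall of both lines alike, at -1.60 ± 0.13 (adjusted p = 6.28e-05). ACTG2, the enteric actin, stood at -2.00 ± 0.25, a value that rests partly on background (adjusted p = 0.000912), and CNN3, an acidic calponin, at 1.37 ± 0.24 (adjusted p = 0.00713), both without overlap. FSCN1, fascin, which bundles actin in cell protrusions, had 16928, 28145 and 17454 units in OHP, 20973, 24370 and 22652 in Pt1, and 2483, 5439 and 3751 in parental cells, a rise of 2.57 ± 0.26 (adjusted p = 0.000251). TPM2, a tropomyosin, had 20845, 53735 and 21602 units in OHP, 192.4, 240.8 and 199.0 in Pt1, and 18604, 24203 and 17195 in parental cells. OHP overlapped with parental cells and Pt1 was at background, at least 65.5-fold lower. ARHGDIB, a gene expressed mainly in blood cells, had 1290, 3014 and 1074 units in OHP, 855.1, 2221 and 1642 in Pt1, and 161.5, 231.2 and 183.9 in parental cells, at least 5.08-fold higher (adjusted p = 0.000341). Among integrins and laminins, 2 of 28 rose and 5 fell (4 and 8 without OHP array 2, 1 and 3 without parental array 2, and 0 and 2 with 1 resistant group), beside the same 7.78%. The beta 2 chain ITGB2 stood at -2.29 ± 0.23 (-0.93 in OHP and -3.66 in Pt1) and the collagen-binding chain ITGA2 at -2.10 ± 0.28 (-3.10 in OHP and -1.10 in Pt1), with adjusted p = 0.000222 and 0.0014. The rises of the beta 3 chain ITGB3 and the laminin chain LAMB3 lay in Pt1, at 2.87 ± 0.41 and 2.41 ± 0.28, with OHP at 0.26 ± 0.41 and 0.36 ± 0.28, and the values of ITGB3 and of ITGA2 in OHP rest partly on background. ITGB3 lost its call without OHP array 1, any Pt1 array or parental array 2 or 3. With the resistant arrays as 1 group, TPM2, ITGB2, ITGA2, ITGB3 and LAMB3 were not called (adjusted p from 0.12 to 0.579).

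Receptor kinases and their ligands were called higher for 6 of 43 and lower for 2 (9 and 8 without OHP array 2, 3 and 2 with 1 resistant group), beside 7.78% of all genes called. INPP4B, ADGRB3 and EMP1, given below, are outside this list. AXL, a receptor tyrosine kinase of the TAM family, had 5327, 1546 and 4369 units in OHP, 6480, 6982 and 6851 in Pt1, and 282.3, 291.9 and 258.9 in parental cells. It was at background in parental cells and at least 15.6-fold higher (adjusted p = 3.55e-05), with OHP array 2 the lowest resistant array. PROS1, protein S, a ligand of TAM receptors, had 1532, 605.3 and 1625 units in OHP, 4023, 3591 and 3553 in Pt1, and 455.7, 326.1 and 403.5 in parental cells, a rise of 2.72 ± 0.33 (adjusted p = 0.000754) that was larger in Pt1 (difference -1.80 ± 0.38, adjusted p = 0.0192). Their family member MERTK, chosen after its value was seen, had 260.8 to 332.7 units in OHP, 787.1 to 915.8 in Pt1 and 234.0 to 258.9 in parental cells, and was not called with the resistant arrays as 1 group (adjusted p = 0.334). PDGFB, a platelet-derived growth factor chain, had 392.2, 454.8 and 286.4 units in OHP, 380.6, 439.4 and 401.9 in Pt1, and 1169, 1491 and 1149 in parental cells, a change of -2.00 ± 0.21 (adjusted p = 0.000293; -0.93 with its probes averaged), whereas PDGFC rose by 1.61 ± 0.32 (adjusted p = 0.0142), a call lost without parental array 1 or 2. EGFR stood at 0.21 ± 0.19 and was not called (adjusted p = 0.652). INPP4B, a phosphatase that removes the 4-phosphate from phosphoinositides downstream of such receptors, had 5143, 4070 and 4810 units in OHP, 3407, 3421 and 2377 in Pt1, and 439.4, 460.0 and 423.2 in parental cells. Its values were tight within lines, and it rose by 3.41 ± 0.16 (adjusted p = 2.63e-06). ADGRB3, an adhesion G protein-coupled receptor, had 1895, 1422 and 2746 units in OHP, 791.7, 847.3 and 802.4 in Pt1, and 199.2, 172.8 and 196.1 in parental cells. It was at least 4.17-fold higher (adjusted p = 8.76e-06), further in OHP than in Pt1 (difference 1.37 ± 0.25, adjusted p = 0.00847). EMP1, an epithelial membrane protein, rose by 3.49 ± 0.38 (adjusted p = 0.000384), with 1116 to 3735 units in OHP, 18041 to 20993 in Pt1 and 563.3 to 824.1 in parental cells. EMP1 was not called with the resistant arrays as 1 group (adjusted p = 0.0831).

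Other shared rises were those of UST, MEOX1 and TCEAL9. UST, which sulfates uronic acid in chondroitin and dermatan sulfate, had 955.7, 1031 and 1576 units in OHP, 1261, 1388 and 1482 in Pt1, and 258.3, 254.2 and 259.1 in parental cells, at least 4.17-fold higher (adjusted p = 1.58e-05). MEOX1, a homeobox factor of somite development, had 856.5, 1130 and 853.2 units in OHP, 795.9, 832.5 and 1093 in Pt1, and 195.8, 284.0 and 255.3 in parental cells, at least 3.04-fold higher (adjusted p = 0.000136). For both, the 6 resistant arrays formed 1 narrow range. TCEAL9, an X-linked protein of the TCEAL family, had 16025, 40051 and 22207 units in OHP, 17327, 11799 and 12288 in Pt1, and 1948, 2692 and 2494 in parental cells, a rise of 3.0 ± 0.28 (adjusted p = 0.000156).

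Other shared falls were those of DPP4, GAL and the genes that follow. DPP4, a serine exopeptidase of the cell surface, had 196.7, 194.8 and 200.7 units in OHP, 221.5, 196.2 and 205.0 in Pt1, and 4406, 2753 and 2920 in parental cells, at least 10.9-fold lower (adjusted p = 5.15e-07). GAL, the neuropeptide galanin, had 192.8, 198.0 and 214.2 units in OHP, 185.9, 173.7 and 193.8 in Pt1, and 2328, 2336 and 2209 in parental cells, at least 7.58-fold lower (adjusted p = 1.69e-07). All 6 resistant arrays of both genes were at background, OHP and Pt1 alike. NOSTRIN, which traffics endothelial nitric oxide synthase, was at least 8.25-fold lower, the potassium channel subunit KCNK12 at least 5.1-fold, the ankyrin repeat protein ANKRD22 at least 38-fold and AKAP19, a small anchor of protein kinase A, at least 26.4-fold (adjusted p from 1.69e-07 to 2.57e-05). APOM, an apolipoprotein that carries sphingosine 1-phosphate, had 460.9, 336.3 and 367.7 units in OHP, 380.7, 357.1 and 406.2 in Pt1, and 15169, 9148 and 14506 in parental cells. It stayed just above the ceiling on all resistant arrays, with a change of -5.45 ± 0.20 (adjusted p = 5.74e-07). CA12, a membrane carbonic anhydrase of the hypoxia response, had 272.4, 324.6 and 287.9 units in OHP, 298.4, 270.8 and 296.4 in Pt1, and 5790, 5103 and 3856 in parental cells, a change of -4.61 ± 0.17 (adjusted p = 5.15e-07) that rests partly on background. TMT1B, a membrane methyltransferase, had 565.6, 924.2 and 606.5 units in OHP, 923.3, 943.3 and 1035 in Pt1, and 9913, 12654 and 11616 in parental cells, a change of -3.98 ± 0.19 (adjusted p = 2.9e-06). FOLR1, the folate receptor of ovarian carcinoma, had 3003, 3538 and 2823 units in OHP, 1387, 1978 and 2257 in Pt1, and 12158, 20129 and 15271 in parental cells, a change of -2.75 ± 0.21 (adjusted p = 4.77e-05). Of 15 kallikrein proteases, 3 were lower and 0 higher, beside 7.78% of all genes called. Only 5 of the 15 were above background on all arrays of a line. KLK11 had 6336, 2959 and 4617 units in OHP, 310.2, 278.0 and 346.0 in Pt1, and 11533, 14739 and 19486 in parental cells, and fell further in Pt1 than in OHP (OHP minus Pt1 4.34 ± 0.30, adjusted p = 1.67e-05, resting partly on background). KLK10 stood at -3.45 ± 0.23, resting partly on background and at -1.76 with its probes averaged, and KLK13 was at least 1.73-fold lower (adjusted p = 2.17e-05 and 0.00127). KLK11 was not called with the resistant arrays as 1 group (adjusted p = 0.144).

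Cancer-testis antigens, normally silent outside the germ line, were called in both directions, 5 of 31 higher and 3 lower, beside 7.78% of all genes called. These counts were 6 and 3 without OHP array 2 and 0 and 1 with 1 resistant group. CT45A3 had 1215, 1004 and 1429 units in OHP, 10216, 13791 and 12480 in Pt1, and 340.7, 334.1 and 335.2 in parental cells. SSX1 had 784.3, 1259 and 636.8 units in OHP, 7667, 10105 and 10019 in Pt1, and 282.5, 364.3 and 240.1 in parental cells. Parental SSX1 was at background on 2 of 3 arrays. Both genes were higher on all 6 resistant arrays, by 2.20 and 1.97 on the log2 scale in OHP and by 5.64 and 5.56 in Pt1, and OHP minus Pt1 was -3.44 ± 0.19 and -3.59 ± 0.31 (adjusted p = 3.11e-06 and 8.37e-05). PAGE1 had 43003, 24426 and 36175 units in OHP, 205.7, 227.7 and 188.2 in Pt1, and 29446, 29114 and 24334 in parental cells, with OHP overlapping parental cells and Pt1 at background, at least 91.1-fold lower. MAGEA10, chosen after its value was seen, had 11942, 10670 and 11281 units in OHP, 180.3, 174.0 and 173.5 in Pt1, and 227.2, 265.0 and 249.4 in parental cells, so that it was high in OHP alone. CT45A1, a near copy of CT45A3 whose probe may detect the same transcripts, was at least 11.8-fold higher in Pt1, and in OHP was above background on 2 of 3 arrays. With the resistant arrays as 1 group, CT45A3, SSX1, PAGE1, CT45A1 and MAGEA10 were not called (adjusted p from 0.064 to 0.653).

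Cholesterol genes had 5 of 29 lower, 2 higher and 22 not called (8 and 3 without OHP array 2, 2 and 0 with 1 resistant group, and 3 lower when parental array 2 or 3 or Pt1 array 2 or 3 was left out), beside 7.78% of all genes called. The list's median was -0.37 (-0.37 with bounds). SC5D, a desaturase late in cholesterol synthesis, had 5739, 6305 and 6775 units in OHP, 5556, 4181 and 3823 in Pt1, and 10011, 12788 and 10731 in parental cells, a change of -1.09 ± 0.16 (adjusted p = 0.00275). CYP51A1, the lanosterol demethylase, stood at -1.19 ± 0.22 (adjusted p = 0.009), whereas ABCA1, an exporter, was higher by at least 1.41-fold (adjusted p = 0.00524). The sterol importer NPC1L1 fell in Pt1 (-4.10 ± 0.31, resting partly on background), with OHP at -0.03 ± 0.31 (adjusted p = 0.983). Of 27 aldehyde and aldo-keto genes, 5 rose and 4 fell (6 and 11 without OHP array 2, 1 and 2 with 1 resistant group, and 1 or 2 falls without Pt1 array 3 or a parental array), beside the same 7.78%. Besides AKR1C3, ALDH2, the mitochondrial aldehyde dehydrogenase, had 215.8, 299.1 and 185.3 units in OHP, 6532, 6570 and 5117 in Pt1, and 376.5, 401.5 and 302.4 in parental cells. ALDH2 and PTGR1, a reductase of lipid aldehydes, were high in Pt1 alone, by 4.51 ± 0.29 and by at least 15.4-fold. ALDH3A1 was at background in both resistant lines, at least 1.49-fold lower (adjusted p = 0.00119). In the glycolysis and hypoxia list, 2 of 33 rose and 3 fell (7 and 4 without OHP array 2, 0 and 1 with 1 resistant group), beside the same 7.78%. The neuronal enolase ENO2 fell in OHP (-4.15 ± 0.30, resting partly on background, with Pt1 at 0.32 ± 0.30), the vasodilator peptide ADM rose in Pt1 (3.09 ± 0.20, with OHP at 0.04 ± 0.20), and ANKRD37, a hypoxia-inducible ankyrin protein, stood at 1.47 ± 0.28, which was not called without parental array 1 or 2. In the stress list, 1 of 33 rose and 1 fell (7 and 4 without OHP array 2, 0 and 1 with 1 resistant group), beside the same 7.78%. The chaperone HSPH1 stood at 0.93 ± 0.19 and the disulfide isomerase PDIA4 at -0.73 ± 0.15, called neither without parental array 3 nor without parental array 1 (HSPH1) or 2 (PDIA4). With the resistant arrays as 1 group, NPC1L1, ABCA1, ALDH2, PTGR1, ENO2, ADM, ANKRD37 and HSPH1 were not called (adjusted p from 0.0509 to 0.725).

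**Figure D3:**
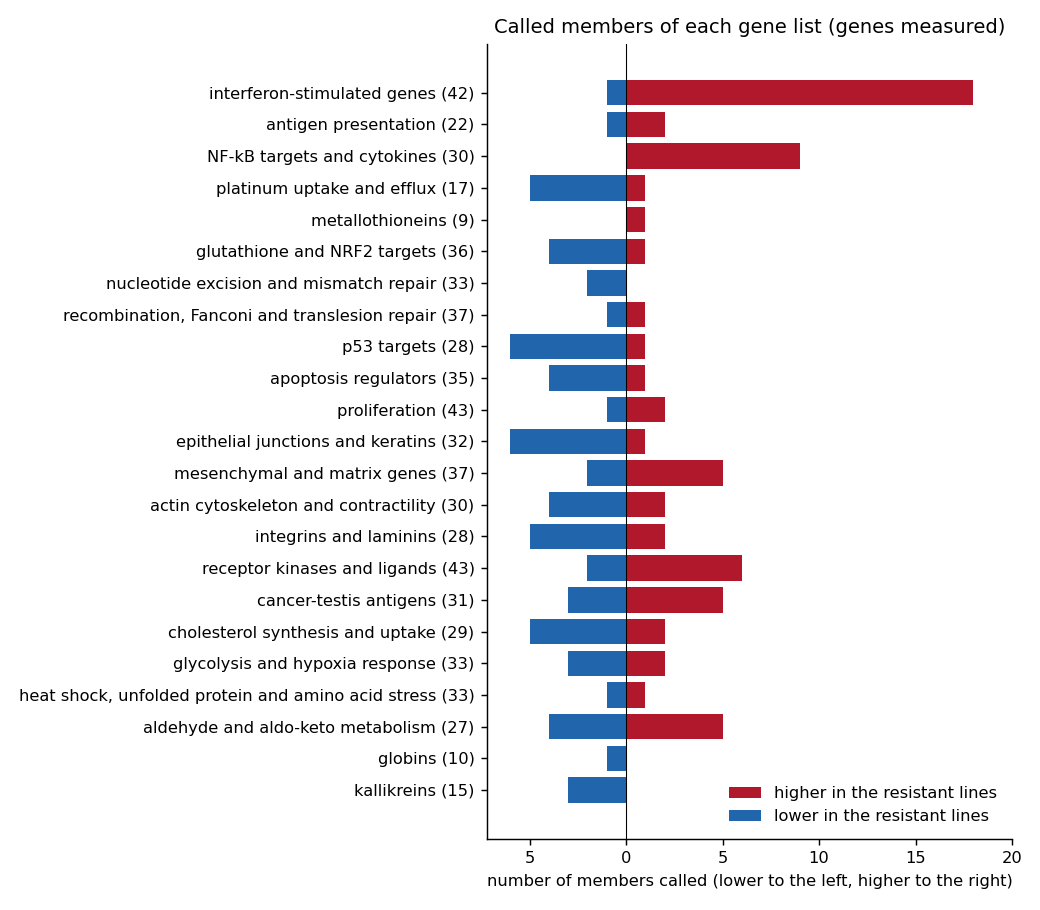
Number of called members in each of 23 gene lists, with the number of measured members in brackets. Bars to the right count members higher in the resistant average, and bars to the left members lower. Interferon-stimulated genes have 18 members to the right and 1 to the left. Of all measured genes, 2.94% were called higher and 4.83% lower.

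Over all lists, 133 of 703 measured genes were called (260 without OHP array 2, and 58 with the resistant arrays as 1 group), beside 7.78% of all genes. The lists were drawn up with results of these data known, so the share of called members is a description.

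OHP and Pt1 differed from each other for 1431 genes (7.59%). This contrast does not use the parental mean, though it shares each gene's residual spread with the averaged contrast. It was called for 511 of the 1466 genes called in the average (34.9%), against 920 of the 17386 others (5.29%). Where the 6 resistant arrays lay on one side of the parental arrays, 183 of 1031 called genes differed between the lines (17.7%). Among the 435 called genes whose arrays overlapped, 328 did (75.4%). A called gene tends to overlap where 1 line stays near the parental level, so this split is tied to the difference between the lines. The 2 shares are therefore a description. For 130 called genes OHP and Pt1 fell on opposite sides of the parental mean. Among shared rises that differed, Pt1 lay further from parental cells for 46 and OHP for 21. Among shared falls that differed, these numbers were 71 and 45. Without OHP array 2, 1236 called genes differed between the lines, and without other arrays between 291 and 509.

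**Figure D4:**
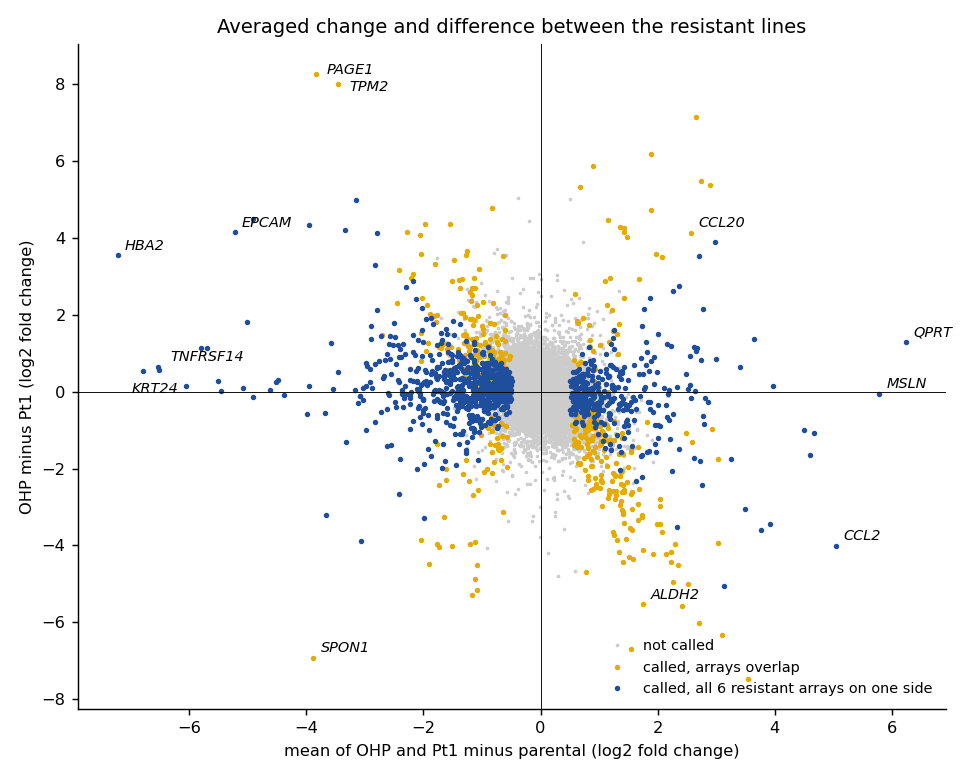
Fitted log2 fold change of the resistant average against parental cells (horizontal axis) and of OHP minus Pt1 (vertical axis) for each of 18852 genes. Grey points were not called in the average, yellow points were called with overlapping arrays, and blue points were called with all 6 resistant arrays on one side. MSLN and KRT24 lie near the line at 0, where OHP and Pt1 are alike, and TPM2, PAGE1 and SPON1 lie far from it, each at background in 1 line, so that their positions are fitted values and not bounds.

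At the extreme, 41 shared rises were at background on all 3 parental arrays and above it on all 6 resistant arrays, and 78 shared falls were above background on all 3 parental arrays and at or under it on all 6 resistant arrays. Beyond the genes named above, the largest of these rises, chosen after their values were seen, were of NTN1, the guidance protein netrin 1, with 393.4 to 2572 units in the resistant lines against 230.0 to 250.3 in parental cells, and of PTGES, the prostaglandin E synthase, with 527.4 to 1748 against 183.6 to 229.0. The largest such falls were of CRYM, a thyroid hormone-binding crystallin, with 197.0 to 294.6 units against 1479 to 2531, and of BPI, a bactericidal protein, with 182.3 to 202.8 against 737.1 to 1224.

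Shared falls were unevenly spread over the chromosomes. On chromosome 19, 99 of 1293 genes (7.66%) were shared falls and 15 (1.16%) shared rises, beside 3.72% and 1.75% over all chromosomes. Restricted to genes above background on all arrays of a line, the shares of falls were 12% on chromosome 19 (94 of 781 genes) and 6.05% over all chromosomes, and the median log2 fold change was -0.25 there and -0.03 over all chromosomes. The next highest share among these genes was 7.58% on chromosome 2. ERCC1, BAX, KLK10, KLK11 and KLK13 were shared falls on chromosome 19, and AXL and EBI3 shared rises there. GDF15, also on it, was called lower but overlapped with parental cells and is not a shared fall. Genes on a chromosome are not independent of each other, and copy number was not measured here.

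**Figure D5:**
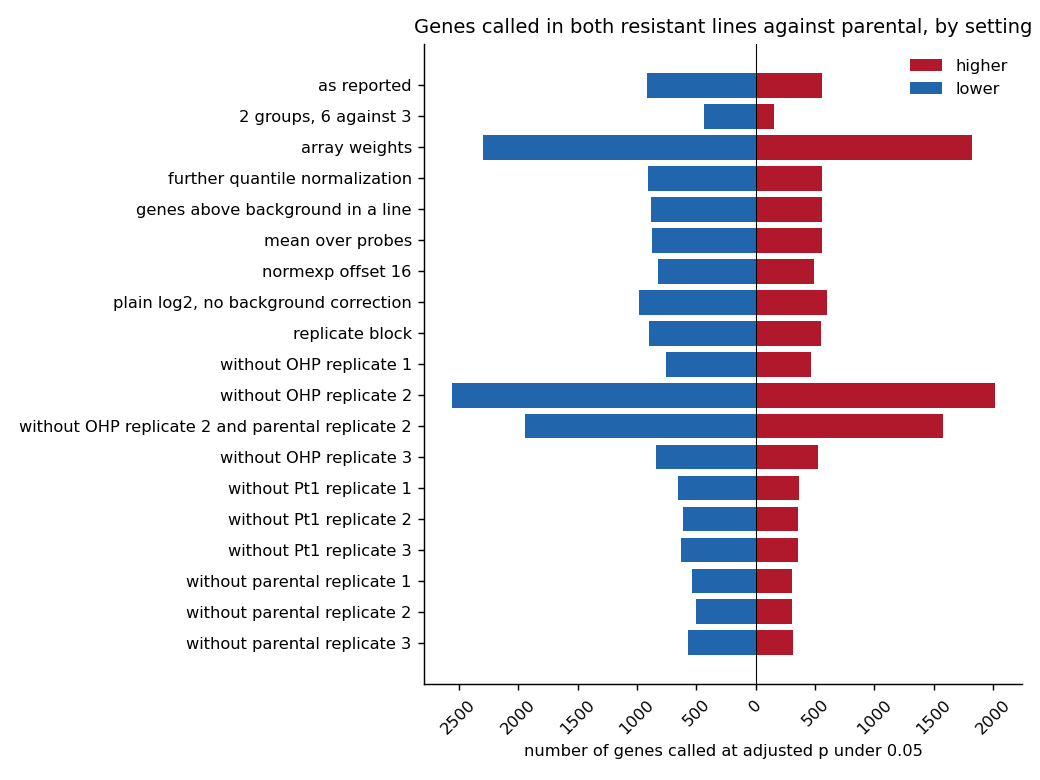
Number of genes called as higher (right) or lower (left) in the resistant average at an adjusted p under 0.05, as reported and under each alternative processing or left-out array. The reported bars stand at 555 and 911, the longest bars come without OHP array 2 (2017 and 2560), and the shortest right bar comes with the 6 resistant arrays as 1 group (157).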

How the data were processed

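Gene expression was measured on 9 Illumina bead arrays, 3 each of OHP, Pt1 and parental cells, per the labels. The deposited values are intensities on a linear scale, exported from BeadStudio per the submitters' processing notes. They run from 125.13 to 71072.36 without values at 0, so background had not been subtracted, and the sorted values of the 9 arrays differ by at most 1.09%, as after quantile normalization. A second deposited table was not used, because its 9 sample columns could not be paired with samples by name.

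Of 48803 probes, 28098 carry 1 gene symbol in GEO's platform annotation, 13 carry several and 20692 none. The probe with the highest mean log2 intensity stood for each of 18852 genes (6132 had several). Intensities were background-corrected with normexp (offset 50), taken to log2 and fitted with limma 3.58.1 in R 4.3.3 as 3 line means (6 residual degrees of freedom). The contrasts were the mean of OHP and Pt1 minus parental, each line minus parental, and OHP minus Pt1, two-sided, with Benjamini-Hochberg adjustment over all genes. Whether arrays lay on one side was read from the deposited intensities. The 431 olfactory receptor probes set the background ceiling. The fit was tested on simulated data, with 1 spread per gene on all arrays and the same shift on all resistant arrays. That test covers neither an array apart from its line nor a difference between OHP and Pt1. Figures were drawn with matplotlib 3.10.9 in Python 3.11.15. The number of arrays limits the precision, and p-values measure the spread between these samples of 1 cell line.

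The genes named were the 15 largest shared rises and falls (ranked by the smaller change of OHP and Pt1), the 5 next largest averaged rises and falls, up to 4 called genes of each list, a fixed set of platinum-related genes, and 3 genes on each side of the threshold. Members and lists were chosen with earlier results of these data known. Promoters matched 14871 of 18852 genes (78.9%), so no comparison of motif shares between gene groups was made. Array numbers were not taken as pairs. Alternatives were array weights, a replicate block, 2 groups, other background treatment, further quantile normalization, the mean over probes, a filter on background, and each array left out. OHP and parental arrays 2 were left out together as a choice made after seeing the data.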

Additional observations from a re-analysis of the deposited data

Results flagged for a closer look

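The genes below were picked because OHP and Pt1 differed from each other in the same contrast with parental cells, by the test of OHP minus Pt1 itself (limma, adjusted p under 0.05 over all genes), which was called for 7.59% of all genes. Only genes named by the stated rules were considered. Genes chosen after their values were seen, MAGEA10 and SLC47A1 among them, are therefore not listed. Values are OHP minus Pt1 on the log2 scale, and were not examined further. Where 1 line was at background on all 3 arrays, the value is a bound, the other line's deposited intensity over the ceiling.

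Among shared changes, the difference was 1.28 for QPRT, 1.37 for ADGRB3 and 1.14 for LBP. It was -1.64 for CXCL8 and -4.01 for CCL2. Among the largest averaged changes, it was -3.44 for CT45A3, -3.59 for SSX1, -3.05 for EMP1 and -1.74 for IFI44. In inflammation and defence genes, it was -1.50 for IFIT2, 4.13 for CCL20 and -1.04 for NQO1. In repair, p53, apoptosis and proliferation genes it was 0.71 for SHPRH, -1.32 for CDKN1A, -1.0 for FAS, 1.80 for GDF15, -3.87 for CDK6 and -0.80 for BCL2, which was not called in the average.

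In adhesion, matrix and cytoskeleton genes, the difference was -0.86 for KRT19, -2.55 for CALD1, 2.73 for ITGB2, -2.01 for ITGA2, -2.61 for ITGB3 and -2.05 for LAMB3. PROS1 stood at -1.80, LRRN4 at -3.20, KLK11 at 4.34 and CT45A1 at -3.93. In metabolic and stress genes, NPC1L1 stood at 4.07, ABCA1 at -1.20, ENO2 at -4.47, ADM at -3.05 and HSPH1 at -0.93. The values of LBP, NPC1L1 and KLK11 in Pt1, and of FAS, CDK6, ITGA2, ITGB3, CT45A1, ABCA1, ENO2 and LRRN4 in OHP, rest partly on background.

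Pt1 was at background for 7 of these genes, which were higher in OHP at least 4.45-fold for HBA2, 7.93-fold for EPCAM, 1.62-fold for CCN3, 6.68-fold for RADX, 3.23-fold for BID, 95.7-fold for TPM2 and 111-fold for PAGE1. OHP was at background for 8 of these genes, which were lower in OHP than in Pt1 at least 2.39-fold for ATR, 1.64-fold for BMF, 4.76-fold for CDKN2A, 4.69-fold for CLDN7, 51.6-fold for SPON1, 15.4-fold for PTGR1, 20-fold for ALDH2 and 2.95-fold for ENG.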

How the results depend on the processing

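The 18 alternatives gave 2157 combinations of a named gene and a setting. No direction reversed where the gene was called as reported or in the alternative, and sign changes of genes called in neither were not counted. Of the 2157 combinations, 1976 kept their side of the threshold, 156 lost the call and 25 gained it, and 88 of 108 called named genes kept the call without each single array. Against 1466 called genes (555 higher and 911 lower), treating the resistant arrays as 1 group gave 591 (157 and 434), array weights, which gave OHP array 2 a weight of 0.1109, gave 4117 (1823 and 2294), and leaving out OHP and parental arrays 2 together gave 3513 (1575 and 1938). Leaving out single arrays gave 802 to 4577 (302 to 2017 higher and 500 to 2560 lower). Genes changed at least 2-fold, 822 as reported, numbered 423 with 1 resistant group and 647 to 1350 without single arrays.
The 1757 genes with all resistant arrays on one side (624 above and 1133 below) became 4921 (2204 and 2717) without both arrays 2, and 1904 to 4026 (687 to 1738 and 1217 to 2288) without single arrays, where fewer arrays have to agree. The 511 called genes that differed between OHP and Pt1 became 1843 with array weights, 1203 without both arrays 2 and 291 to 1236 without single arrays. The 133 called list members became 58 with 1 resistant group, 243 with array weights, 232 without both arrays 2 and 95 to 260 without single arrays. Same-numbered arrays of OHP and parental cells deviated together (correlations of deviations 0.125, 0.671 and 0.502), those of Pt1 and parental cells did not throughout (0.181, 0.045 and -0.004), nor those of OHP and Pt1 (0.022, -0.012 and -0.192), so the numbers were not taken as pairs for the average. With the replicate number as a block, 1453 genes were called and 1317 of the 1466 were among them. GTF2H4 and CDK2 were not (adjusted p = 0.0532 and 0.052). With the mean over the probes of a gene, calls were kept but log2 fold changes were 1.30 for MEOX1, 1.94 for SSX1, -4.23 for ANKRD22, -3.46 for AKAP19, -3.26 for EPCAM, 1.51 for OAS1, 1.31 for CDKN2A, -2.54 for TPM2, 0.67 for LAMB3, 1.31 for CT45A1 and -1.98 for KLK11. On the linear scale, these fold changes were over 1.5 times smaller than those fitted for the brightest probes. The cause of these shifts was not tested beyond the left-out arrays. Signal at background, below 302.19 units, limits the fold changes of dim genes to bounds.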

Other observations

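Runs of 15 neighbouring measured genes with a shared shift, found after the values were seen, are given as values only. The 4 lowest runs all lay on chromosome 19. From ARHGAP33 to COX7A1 the median log2 fold change of the resistant average was -1.0, with -0.49 in OHP and -1.33 in Pt1, and 14 of 15 genes were below 0. From KLK4 to ZNF615, a run that starts in the kallikrein cluster and ends among zinc finger genes, the median was -0.97, with -0.93 in OHP and -0.96 in Pt1. From PSMD8 to SARS2 it was -0.84, with all 15 genes below 0, and from RDH13 to ZNF628 it was -0.71. The highest run, from GCSH to KLHL36 on chromosome 16, had a median of 0.64, with 14 of 15 genes above 0. Neighbouring genes are not independent of each other, and a run chosen for its median was not tested.

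Genes close to the threshold of an adjusted p of 0.05 show how narrow the line is. RASL12, RASIP1 and EIF4E3 lay just inside it (adjusted p = 0.0499, 0.05 and 0.05), and CTBP2, FGFR4 and KANSL1L just outside it (adjusted p = 0.05, 0.05 and 0.0501). The log2 fold change was 0.68 ± 0.18 for RASIP1, -0.58 ± 0.15 for EIF4E3, 0.76 ± 0.20 for CTBP2 and -1.47 ± 0.39 for FGFR4. FGFR4, a receptor of fibroblast growth factors, was lower on all 6 resistant arrays. RASL12 was at background on all 9 arrays.

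Further genes at background on all parental arrays and above it on all resistant arrays were OLR1, a receptor of oxidised lipoprotein, the transcription factor gene TFAP2C, the complement component C3, TGFB3, SMAD7 and the plasminogen activator gene PLAU. The reverse was found for the alcohol dehydrogenase gene ADH6, PAPSS2, which makes the sulfate donor of sulfation, the galectin gene LGALS4, LRRK2 and CYP2E1.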
